A study of Mus musculus with 6 samples.

Results

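Kit, Flt3, Csf1r and Cd34 encode surface proteins of blood progenitors, and they were followed through every probe set that carries 1 of these gene symbols alone. A probe set is a group of short array probes that reports on 1 transcript region. Of 28821 probe sets in the deposited table, 7 met this rule: 2 for Kit, 1 for Flt3, 3 for Csf1r and 1 for Cd34. The samples were 3 leukemia samples and 3 wild-type samples of Lin-/Sca1-/cKit+ cells, the sorted fraction that lacks mature lineage markers and Sca1, carries the Kit protein on its surface and holds committed myeloid progenitors. The leukemia cells came from spleens of MF1 mice that had been lethally irradiated and had received progenitors transduced with AE9a, a truncated form of the AML1-ETO fusion protein, and each sample names 1 numbered mouse. The wild-type cells came from bone marrow of MF1 mice, named in the plural, so pooling of animals cannot be told from the labels. Mice of both groups were 12 to 16 weeks old. Organ, transplantation and fusion differ together between the groups and cannot be told apart. The labels do not say whether transduced cells were separated from host cells.

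Kit, Flt3 and Csf1r belong to the class III receptor tyrosine kinases, which pair up when a ligand binds and then phosphorylate themselves and their adaptors. Kit binds stem cell factor and sustains stem cells, myeloid and erythroid progenitors and mast cells. Flt3 binds Flt3 ligand and marks multipotent and lymphoid-primed progenitors and dendritic cell precursors, while Csf1r binds Csf1 and Il34 and drives the monocyte and macrophage lineage. Cd34 is a sialomucin, a heavily glycosylated adhesion protein. Within the Lin-/Sca1-/cKit+ fraction, CD34 and the Fc gamma receptors separate common myeloid, granulocyte-monocyte and megakaryocyte-erythroid progenitors. Kit protein was a criterion of the sort in both groups, so its transcript was read in cells already selected for the protein, whereas Flt3, Csf1r and Cd34 were not named in the gate.

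The 6 arrays limit the precision of every value. Their median deposited intensity ran from 71.6 to 79.9. Leukemia arrays correlated with each other at a Pearson's r of 0.969 to 0.978, and wild-type arrays at 0.992 to 0.994. Leukemia replicate 1 stood apart, with limma giving it an array weight of 0.193 while the others had 0.874 to 2.43, and it alone of the leukemia arrays shared a fluidics run with the wild-type arrays. Its 5' probe set for 18S ribosomal RNA was at 12.35 log2, against 11.14 and 11.25 on the other leukemia arrays and 7.77 to 9.41 on the wild-type arrays. The part of these differences in the results was not tested, and the changes without that array are given beside each gene.

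Upstream sequence is shown for Kit, Flt3 and Cd34, because the fusion keeps the DNA-binding domain of AML1 (Runx1). RefSeq promoters were matched for these 3 of the 4 genes, and Csf1r is not shown. Each line gives the 250 bases before the annotated transcription start from RefSeq (build GRCm38.p6), read 5′ to 3′ on the strand of the gene. Kit lies at chr5:75574737-75574986 on the plus strand, with a second annotated start nearby that is not shown. Flt3 lies at chr5:147400490-147400739 on the minus strand, and Cd34 at chr1:194938571-194938820 on the plus strand. Capitals mark matches on either strand to 3 motifs. The RUNX motif was searched as TGTGGT and also in the form TGCGGT, the PU.1 motif as GAGGAA, and the GATA motif as AGATAA, with the variants TGATAA and GGATAA.
Kit: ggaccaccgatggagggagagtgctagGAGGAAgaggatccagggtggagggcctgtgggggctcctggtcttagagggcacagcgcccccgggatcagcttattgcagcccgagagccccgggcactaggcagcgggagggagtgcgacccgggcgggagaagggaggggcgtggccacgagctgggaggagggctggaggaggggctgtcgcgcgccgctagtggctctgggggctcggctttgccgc
Flt3: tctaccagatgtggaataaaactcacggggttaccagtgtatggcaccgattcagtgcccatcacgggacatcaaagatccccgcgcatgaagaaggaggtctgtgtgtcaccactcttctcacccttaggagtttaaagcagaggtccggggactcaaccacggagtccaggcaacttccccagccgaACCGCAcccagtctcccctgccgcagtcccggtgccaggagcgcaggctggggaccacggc
Cd34: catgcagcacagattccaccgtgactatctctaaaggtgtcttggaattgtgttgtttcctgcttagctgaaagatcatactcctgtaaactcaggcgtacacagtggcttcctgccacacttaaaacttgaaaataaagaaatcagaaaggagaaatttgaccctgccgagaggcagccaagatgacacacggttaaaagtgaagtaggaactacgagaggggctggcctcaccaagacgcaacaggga
The Flt3 sequence held 1 match to the RUNX motif, on the opposite strand at 61 to 56 bases before the start, and the Kit sequence held 1 match to the PU.1 motif, at 223 to 218 bases before the start. The Cd34 sequence held 0 matches to these 3 motifs. Of 32851 promoters of the same length, 18.6% held the RUNX, 23.3% the PU.1 and 21.6% the GATA motif, so single matches were common. The ETS core GGAA, which overlaps the PU.1 motif, occurred 1 time in Kit, 2 times in Flt3 and 5 times in Cd34, and 93.4% of promoters held it. A match describes letters and is not a binding site.

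Of the 7 probe sets, 6 were lower in leukemia and 0 were higher past the threshold (limma, adjusted p under 0.05 over all probe sets tested). All 7 passed the filter on low values, which asked for at least 3 arrays at or above the 40th percentile of their array. Among all 18098 tested probe sets, 38.4% passed, with 20.9% lower and 17.5% higher. A fall of 8-fold or more was measured for 4 of the 7, and for 2.49% of all tested probe sets. Of these 4, Csf1r 1419872_at passed the filter through the wild-type arrays alone and 1419873_s_at through them and 1 leukemia array, so the count supports nothing by itself. Leukemia and wild-type values were fully apart for 6 of the 7, against 56.6% of all tested probe sets. In bulk samples, fewer cells of a type and less RNA per cell cannot be told apart.

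**Figure D1:**
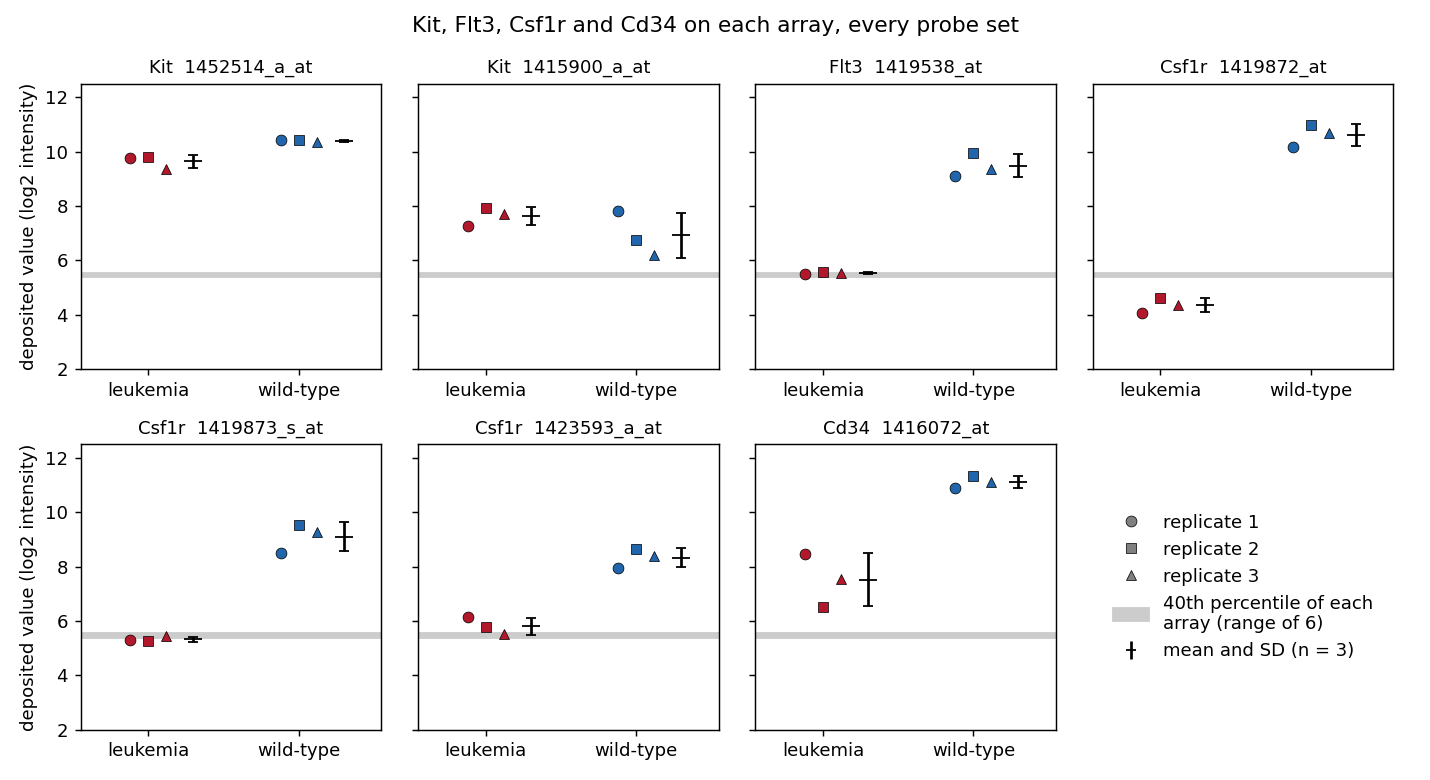
Deposited values (y axis, log2 intensity) of the 7 probe sets on each of 6 arrays, with leukemia left and wild-type right, symbols for replicates, and bars for the mean and SD (n = 3). The grey band spans the 40th percentiles of the arrays; Kit stays above it in both groups, while leukemia values of Flt3 and Csf1r lie near or below it.

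Kit, the receptor the sort selected for, stayed strongly expressed in leukemia, and its transcript was modestly lower by its brighter probe set. That probe set (1452514_a_at) was at 9.76, 9.80 and 9.34 log2 on leukemia arrays 1, 2 and 3, against 10.42, 10.42 and 10.35 log2 on wild-type arrays 1, 2 and 3. Every leukemia value lay below every wild-type value, by at least 0.54. The values stood at percentiles 86.2 to 90.2 of all probe sets on the leukemia arrays and at percentiles 93.5 to 94.0 on the wild-type arrays. The mean was 9.64 ± 0.25 log2 in leukemia and 10.39 ± 0.04 log2 in wild-type (SD, n = 3 each). The change was -0.76 ± 0.13 (SE, limma adjusted p = 0.00489), so that leukemia kept 0.591 of the wild-type intensity, and it was -0.82 without leukemia replicate 1.

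The dimmer probe set of Kit did not follow. Probe set 1415900_a_at was at 7.26, 7.92 and 7.71 log2 on the leukemia arrays, against 7.80, 6.73 and 6.20 log2 on the wild-type arrays. The groups overlapped, since wild-type replicate 1 lay within the leukemia range while the other wild-type arrays lay below it. The change was 0.72 ± 0.40 (SE, limma adjusted p = 0.201), with a 95% interval from -0.24 to 1.67. Its wild-type SD of 0.82 was reached by only 0.343% of tested probe sets, against 88.5% for the SD of the brighter probe set. Without wild-type replicate 1 the change was 1.16 and passed the threshold (limma adjusted p = 0.0282), and the values without the other arrays were 0.36 to 0.90 and did not pass. The brighter minus the dimmer probe set averaged 2.01 ± 0.45 log2 in leukemia and 3.48 ± 0.78 log2 in wild-type (SD, n = 3 each). That difference of -1.48 had a two-sided exact permutation p of 0.1, the lowest value that 3 against 3 can reach. The probe sets of Kit thus gave different answers, and the mean of both gave -0.02 (limma adjusted p = 0.945).

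Flt3, the receptor of early and lymphoid-primed progenitors, was lower in leukemia by 15.5-fold. Its probe set (1419538_at) was at 5.49, 5.55 and 5.54 log2 on the leukemia arrays, against 9.12, 9.95 and 9.36 log2 on the wild-type arrays. The leukemia values were nearly equal to each other, at percentiles 41.4 to 41.5 of all probe sets, and 3.57 below the lowest wild-type value. Their SD was 0.03, a spread that 97.9% of tested probe sets met or exceeded, whereas the wild-type SD was 0.43. The change was -3.95 ± 0.22 (SE, limma adjusted p = 3.17e-05), and -3.93 without leukemia replicate 1. With 16 added to each intensity before the log, which damps differences among dim values, it was -3.55.

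Csf1r, the receptor that directs monocyte and macrophage development, was lower in leukemia with each of its 3 probe sets, and its brightest had the largest measured change of the 7. The brightest (1419872_at) was at 4.07, 4.60 and 4.35 log2 on the leukemia arrays, against 10.17, 10.96 and 10.70 log2 on the wild-type arrays. All leukemia values lay between percentiles 21.6 and 29.0 of their arrays, and all wild-type values between percentiles 92.7 and 96.3. The change was -6.27 ± 0.24 (SE, limma adjusted p = 8.80e-06), which is 77.1-fold lower in leukemia, and -6.14 without leukemia replicate 1. Since the leukemia values lay below the 40th percentile of their arrays (5.39 to 5.43 log2), the fold is a ratio against dim signal and its exact size is not settled.

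The other probe sets of Csf1r gave smaller falls. Probe set 1419873_s_at, whose ending marks probes shared among transcripts, was at 5.29, 5.25 and 5.43 log2 on the leukemia arrays, against 8.50, 9.52 and 9.28 log2 on the wild-type arrays, a change of -3.77 ± 0.27 (SE, limma adjusted p = 8.62e-05). Probe set 1423593_a_at was at 6.14, 5.76 and 5.51 log2 on the leukemia arrays, against 7.94, 8.66 and 8.40 log2 on the wild-type arrays, a change of -2.53 ± 0.24 (SE, limma adjusted p = 3.46e-04). The groups were apart for both, by 3.07 and 1.81. The difference between the changes of the brightest probe set and these was -2.49 and -3.74 log2, with no overlap between the groups in the per-array differences (both at an exact permutation p of 0.1, the lowest possible). The direction of Csf1r was thus shared by its probe sets, while the size ran from 5.77-fold to 77.1-fold.

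Cd34, the sialomucin used to split the myeloid progenitor gate, was lower in leukemia by 12.1-fold and varied most among the leukemia mice. Its probe set (1416072_at) was at 8.48, 6.52 and 7.55 log2 on leukemia arrays 1, 2 and 3, against 10.90, 11.33 and 11.11 log2 on wild-type arrays 1, 2 and 3. The groups were apart by 2.42, with replicate 1 highest and replicate 2 lowest among the leukemia arrays. Unlike the leukemia values of Flt3 and Csf1r, those of Cd34 stayed between percentiles 53.2 and 77.3 of all probe sets. The leukemia SD of 0.98 was reached by 2.92% of tested probe sets, while the wild-type SD was 0.22. The change was -3.60 ± 0.45 (SE, limma adjusted p = 0.00108). Leaving out leukemia replicate 1 gave -4.08, and leaving out replicate 2 gave -3.10. A block for the fluidics run gave -2.64, where only leukemia replicate 1 is set against the wild-type arrays.

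**Figure D2:**
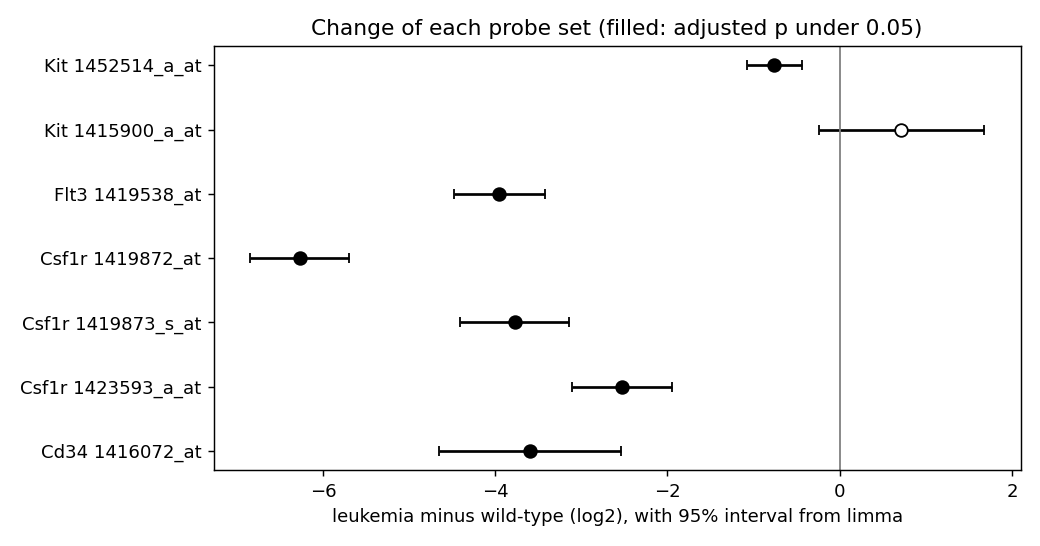
Change of each probe set (x axis, leukemia minus wild-type in log2, with the 95% interval from limma), filled where the adjusted p is under 0.05. Kit lies at -0.76 and 0.72, apart from Flt3, Csf1r and Cd34, which lie between -6.27 and -2.53.

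The interval of the brighter Kit probe set ran from -1.08 to -0.44 and lay above those of all other called probe sets, the nearest of which were -3.11 to -1.95 for the third Csf1r probe set and -4.66 to -2.54 for Cd34. The intervals of Flt3 (-4.48 to -3.42) and Cd34 overlapped. The wild-type arrays also differed among themselves in a shared way. For Flt3, Cd34 and the 3 Csf1r probe sets, wild-type replicate 1 had the lowest and replicate 2 the highest value, an arrangement found in 19.2% of all tested probe sets. No Kit probe set shared it.

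The genes whose profiles were nearest to each receptor or to Cd34 were found by the root mean square difference over the 6 arrays, after subtracting each gene's own wild-type mean, among 9711 genes with 1 probe set each. Nearest to Flt3 were the hexokinase gene Hk3 (0.073 log2), Fndc3b (0.13 log2) and the tetraspanin gene Tspan2 (0.13 log2). Nearest to Csf1r were F13a1, the coagulation factor XIII A chain (0.16 log2), the glutathione transferase gene Mgst1 (0.19 log2) and the choline dehydrogenase gene Chdh (0.20 log2). Nearest to Cd34 were the gephyrin gene Gphn (0.32 log2), Gpr160 (0.34 log2) and the phosphatase gene Ptpn22 (0.34 log2). Nearest to Kit were Ctnnbip1 (0.046 log2), Il21r (0.083 log2) and the actin gene Actg1 (0.091 log2). Within 0.5 log2 lay 100 genes for Flt3, 21 for Csf1r and 22 for Cd34, but 3409 for Kit. For a change as small as that of Kit, this distance also takes in genes with smaller falls. The last count exceeds the 2452 of 9715 tested genes that were lower past the threshold, so it is not one of called genes.

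Among other surface proteins that divide the Lin-/Sca1-/cKit+ gate, 5 of 9 tested genes were lower in leukemia and 0 were higher, where 42.1% of all 9715 tested genes passed, 25.2% lower and 16.9% higher. Their median change was -1.34, against -0.09 for all tested genes. Cd27, a receptor of early and lymphoid-primed progenitors, was at 3.55, 2.97 and 2.97 log2 on the leukemia arrays, against 8.02, 8.57 and 8.40 log2 on the wild-type arrays, and was lower (limma adjusted p = 1.15e-05), with leukemia values below the 40th percentile of 5.39 to 5.43 log2. Il7r, the interleukin 7 receptor chain, was lower as well (limma adjusted p = 2.84e-04) and as dim in leukemia. Cd27 and Il7r passed the filter through the wild-type arrays alone, so the count of lower genes supports nothing by itself. Also lower were Eng (endoglin) and Itga2b (CD41), which mark erythroid and megakaryocyte-biased progenitors, with leukemia values of 6.52 to 7.92 and 6.55 to 7.47 log2, against wild-type values of 9.24 to 9.45 and 9.31 to 9.37 log2. The values of Eng are those of its brighter probe set, and only 1 of its 2 tested probe sets was lower past the threshold. Slamf1 and Cd48 did not pass (limma adjusted p = 0.107 and 0.118), and their leukemia arrays ran from 7.61 to 9.81 and from 8.56 to 11.23 log2. The median was -0.80 without leukemia replicate 3 and -1.91 without leukemia replicate 2.

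The Fc gamma receptors that are read together with CD34 in this gate were singled out after their values were seen. Fcgr3 was at 10.29, 8.91 and 7.70 log2 on leukemia arrays 1, 2 and 3, against 8.06, 8.46 and 8.05 log2 on the wild-type arrays. The leukemia arrays lay on both sides of the wild-type values and the change did not pass (0.78 ± 0.59 SE, limma adjusted p = 0.318). It passed without leukemia replicate 3 (1.41, limma adjusted p = 0.0329). With runs blocked the change was 2.1, where only leukemia replicate 1 is set against the wild-type arrays. Fcgr2b, the inhibitory Fc receptor gene, was at 7.99 ± 0.26 log2 in leukemia and 8.73 ± 0.14 log2 in wild-type (SD, n = 3 each) and fell by 0.74 (limma adjusted p = 0.0118), which did not hold once wild-type replicate 2 was left out (limma adjusted p = 0.0537). Leukemia replicate 1 thus had the highest value of both Cd34 and Fcgr3 among the leukemia arrays.

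**Figure D3:**
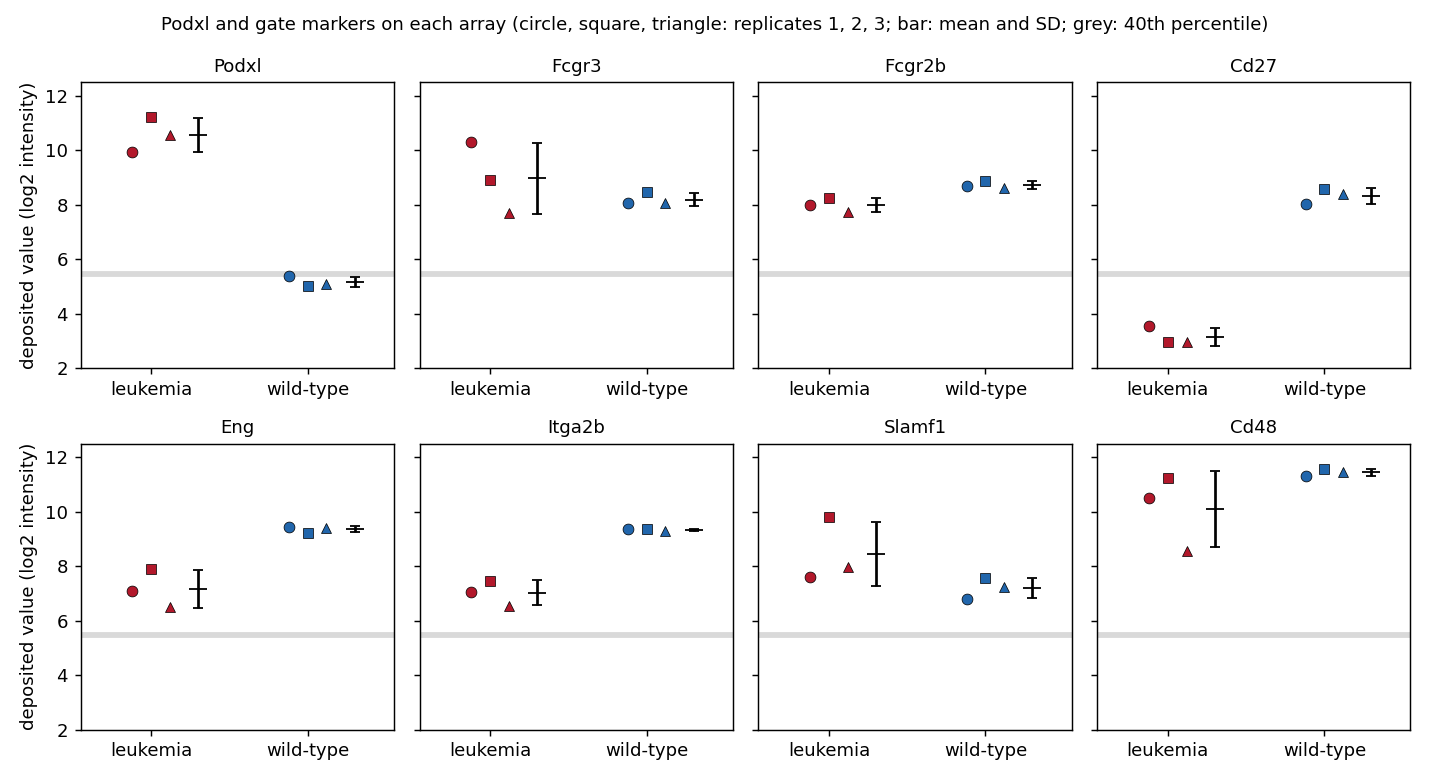
Deposited values (y axis, log2 intensity) of Podxl and 7 gate markers on each array, leukemia left and wild-type right, with symbols for replicates, bars for mean and SD (n = 3) and a grey band at the 40th percentile. Podxl lies near 10.57 in leukemia and 5.17 in wild-type, opposite to Cd27, while Fcgr3, Slamf1 and Cd48 spread widely over the leukemia arrays.

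Podxl, which encodes podocalyxin, a sialomucin of the CD34 family, moved against Cd34. It was at 9.94, 11.22 and 10.55 log2 on leukemia arrays 1, 2 and 3, against 5.39, 5.02 and 5.11 log2 on wild-type arrays 1, 2 and 3. All leukemia values were high and all wild-type values were low, and the leukemia array with the lowest Cd34 value, replicate 2, had the highest Podxl value. Podxl rose by 5.40 ± 0.31 (SE, limma adjusted p = 3.14e-05). Its wild-type values lay below the 40th percentile of their arrays (5.51 to 5.54 log2), so it passed the filter through the leukemia arrays alone. Crkl, an adaptor that binds the tail of CD34, was the other tested gene of this list and did not pass (change 0.0014, limma adjusted p = 0.994).

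Of the receptors' ligands, Kitl (stem cell factor) was too dim to be tested. Its brighter probe set was at 4.02, 4.43 and 3.73 log2 on the leukemia arrays, against 4.04, 3.72 and 4.11 log2 on the wild-type arrays, with overlap. Csf1, the ligand of Csf1r, changed by -0.77 ± 0.21 (SE, limma adjusted p = 0.0239), at 5.72, 5.10 and 5.60 log2 on the leukemia arrays and 6.26, 6.39 and 6.08 log2 on the wild-type arrays. This brighter Csf1 probe set no longer passed when wild-type replicate 1, 2 or 3 was left out (limma adjusted p = 0.0743, 0.0878 and 0.0556). With runs blocked it changed by -0.52, where only leukemia replicate 1 is set against the wild-type arrays. The other Csf1 probe set changed by -1.33 (limma adjusted p = 8.04e-04) and was not recomputed under these settings. Its leukemia values lay below the 40th percentile of their arrays. Flt3l and Il34 were not analysed here. Of the other class III receptors, Pdgfrb fell by 1.52 with its brighter probe set (limma adjusted p = 0.00356) and by 4.43 with the other. Pdgfra was left out as dim, at 3.55 ± 0.11 log2 in leukemia and 3.67 ± 0.26 log2 in wild-type (SD, n = 3 each).

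Of 28 tested genes of receptor-proximal signalling, 4 were higher and 13 lower in leukemia, with a median change of -0.45. Over all tested genes 16.9% were higher and 25.2% lower, with a median of -0.09. Those of the list not past the threshold numbered 11. Gab2, a docking adaptor used by Kit, rose by 2.13 ± 0.27 (SE, limma adjusted p = 9.70e-04) and the Src family kinase gene Fyn rose by 1.23 (limma adjusted p = 4.72e-04), each with both of its probe sets. Gab1, the related docking adaptor, fell by 2.59 (limma adjusted p = 3.37e-05) and Plcg2, a phospholipase downstream of blood cell receptors, fell by 2.37 (limma adjusted p = 0.00354). Without wild-type replicate 3 the number of lower genes was 7, and with the mean of all probe sets of a gene it was 8.

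Negative regulators of these receptors showed no common direction. Of 16 tested, 3 were higher, 2 were lower and 11 did not pass, with a median change of 0.04, where 42.1% of all tested genes passed. The receptor phosphatase gene Ptprj rose by 1.17 (limma adjusted p = 0.00925) and Rasa1, a GTPase-activating protein for Ras, rose by 1.11 (limma adjusted p = 0.0152), which did not pass when wild-type replicate 2 or 3 was left out (limma adjusted p = 0.0609 and 0.0601) or when runs were blocked (0.0611). Ptpn6, the phosphatase SHP-1 that dampens Kit signalling, fell by 0.75 (limma adjusted p = 0.00478). Sh2b3, the adaptor LNK, was lower by 0.50 (limma adjusted p = 0.0361), which did not pass when leukemia replicate 2 or 3 (0.0751 and 0.0776) or wild-type replicate 2 or 3 (0.131 and 0.129) was left out, or on median centring (0.0793). With runs blocked Sh2b3 changed by -0.41, again with leukemia replicate 1 alone against the wild-type arrays. The number of higher genes was 5 without leukemia replicate 2, and that of lower genes was 1 without wild-type replicate 2 or 3 and on median centring.

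Genes induced by ERK, the kinase that these receptors activate, included 3 higher and 1 lower of 8 tested, with a median change of 1.38. The share past the threshold was near the 42.1% of all tested genes. Phlda1 rose by 4.66 (limma adjusted p = 1.03e-05), and passed the filter through the leukemia arrays alone. The early growth response gene Egr1 rose by 2.57 (limma adjusted p = 0.00820), at 10.16 ± 1.17 log2 in leukemia and 7.59 ± 0.18 log2 in wild-type (SD, n = 3 each). Ccnd1, which encodes cyclin D1, fell by 2.17 (limma adjusted p = 5.50e-04). The median was 0.35 without the filter on low values and 0.78 without leukemia replicate 1. The lower genes numbered 2 without leukemia replicate 3, and also with array weights and with 16 added to each intensity.

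**Figure D4:**
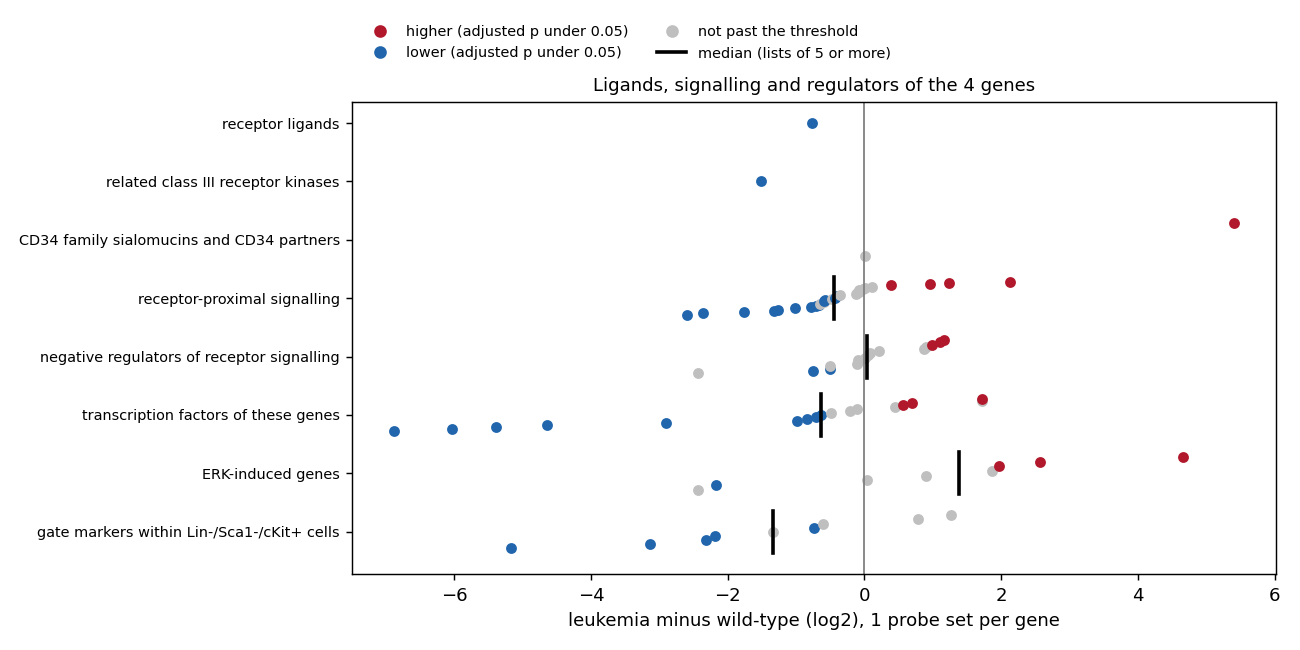
Changes of tested genes (x axis, leukemia minus wild-type in log2, 1 probe set per gene) in 8 lists around the 4 genes, coloured by the test, with a black bar at the median of lists of 5 or more genes. Regulators and gate markers reach furthest to the left, and Podxl at 5.40 furthest to the right.

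Of 17 transcription factors known to control these 4 genes, 3 were higher and 9 lower in leukemia, with a median change of -0.64. Over all tested genes 16.9% were higher and 25.2% lower, and the median was -0.09. Irf8, the monocyte and dendritic cell regulator, was at 3.71, 4.17 and 3.78 log2 on the leukemia arrays, against 10.34, 10.97 and 10.97 log2 on the wild-type arrays. Hoxa9, which acts on progenitor genes together with Meis1, was at 3.66, 3.29 and 3.64 log2 on the leukemia arrays, against 9.27, 9.78 and 9.65 log2 on the wild-type arrays. Cebpa, singled out as a regulator of the granulocyte-monocyte branch, was at 4.34, 4.96 and 4.11 log2 on the leukemia arrays, against 9.60, 9.95 and 10.03 log2 on the wild-type arrays. For all 3 the groups lay far apart, with limma adjusted p = 5.64e-06 for Irf8 and for Hoxa9 and 1.26e-05 for Cebpa. Irf8, Hoxa9, Cebpa and Meis1 lay below the 40th percentile on every leukemia array (5.39 to 5.43 log2). They passed the filter through the wild-type arrays alone, so the count of lower factors supports nothing by itself.

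Spi1, Fli1 and Runx1 changed less, and their calls did not hold under every setting, although over the 6 single arrays left out the change stayed at -0.79 to -0.50 for Spi1, 0.56 to 0.81 for Fli1 and 1.25 to 2.21 for Runx1. Spi1 (PU.1), singled out because it drives Csf1r, was lower by 0.64 (limma adjusted p = 0.0324), which did not pass when leukemia replicate 2 or 3 (0.0522 and 0.078) or wild-type replicate 2 or 3 (0.11 and 0.104) was left out, or on median centring (0.0654). With runs blocked, where only leukemia replicate 1 is set against the wild-type arrays, Spi1 changed by -0.47. Fli1, an ETS factor, was higher by 0.70 (limma adjusted p = 0.0138), and did not pass when wild-type replicate 1 was left out (0.0584). Runx1 was at 10.93 and 10.07 log2 on leukemia arrays 2 and 3, against 8.78, 8.25 and 7.83 log2 on the wild-type arrays, with leukemia array 1 between these ranges. Its change was 1.71 (limma adjusted p = 0.0266), and 0.72 with runs blocked, again from leukemia replicate 1 alone. Runx1 did not pass when leukemia replicate 3 (limma adjusted p = 0.0574), wild-type replicate 2 (0.0823) or wild-type replicate 3 (0.0965) was left out. These values are those of the brightest probe set of each gene. With all arrays, each of the 6 Runx1 probe sets and each of the 2 Fli1 probe sets was higher past the threshold. Only 1 factor was higher without wild-type replicate 2.

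Markers of other cell types differed between the groups too. Of 6 measured monocyte and macrophage markers, 1 lay at or above the 40th percentile on each leukemia array and 5 on each wild-type array, and their summed level ran from 7.20 to 7.53 log2 in leukemia and from 9.03 to 9.38 log2 in wild-type. Dendritic cell markers (5 measured, 1 to 2 above in leukemia and 1 to 3 in wild-type) summed to 7.46 to 7.71 log2 in leukemia and 9.73 to 9.93 log2 in wild-type. Cd74, the only one of them tested, made up most of that sum, at 9.48 to 9.65 log2 in wild-type, while Zbtb46 was higher in leukemia (5.08, 5.94 and 6.76 log2) than in wild-type (4.78, 4.28 and 4.80 log2). Adgre1, the macrophage antigen F4/80, and Cd209a lay below the 40th percentile on all arrays. Megakaryocyte markers (5 measured, 1 to 3 above in leukemia and 4 to 5 in wild-type) summed to 8.14 to 8.22 log2 in leukemia and 10.68 to 10.82 log2 in wild-type. The part of such cells in the falls of Csf1r, Flt3 and Cd34 was not tested.

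Of 9 mast cell and basophil markers, 6 lay at or above the 40th percentile in leukemia and 5 to 6 in wild-type. Their sums were 13.66 to 14.57 log2 in leukemia and 12.12 to 12.28 log2 in wild-type. Of 6 tested, 4 were higher and 1 lower, where 16.9% of all tested genes were higher and 25.2% lower. The lower gene, Mcpt8, was at 3.95, 5.02 and 3.35 log2 on the leukemia arrays, against 9.72, 9.59 and 10.03 log2 on the wild-type arrays. Tpsb2 lay below the percentile on all arrays. Erythroid markers (4 of 4 above in leukemia, 1 of 4 in wild-type) summed to 9.53 to 10.45 log2 in leukemia and 7.70 to 7.90 log2 in wild-type. The part of these cells in the Kit values was not tested. Of the measured T and NK cell, B cell and mature granulocyte markers, Cd5, Cd8a, Ms4a1 and Itgam lay below the 40th percentile on all 6 arrays. The others reached it on at least 1 array. T and NK cell markers (3 measured, 0 above in leukemia and 0 to 1 in wild-type) summed to 5.29 to 5.52 log2 in leukemia and 6.08 to 6.23 log2 in wild-type. B cell markers (2 measured, 1 above on every array) summed to 5.92 to 7.82 log2 in leukemia and 7.49 to 7.93 log2 in wild-type. Mature granulocyte markers (4 measured, 0 above in leukemia and 0 to 3 in wild-type) summed to 5.83 to 6.01 log2 in leukemia and 6.68 to 8.94 log2 in wild-type. Stromal and endothelial markers (6 measured, 0 to 1 above in leukemia and 2 to 3 in wild-type) summed to 6.57 to 7.67 log2 in leukemia and 8.76 to 9.02 log2 in wild-type. Pecam1 made up most of the wild-type sum, at 8.08 to 8.47 log2, while Col1a1 and Cdh5 lay below the 40th percentile on all arrays. Ly6a, the gene of Sca1, was not analysed here.

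The 4 genes were recomputed under 16 other settings, and 111 of 112 recomputed values kept their direction and their side of the threshold. The exception was the dimmer Kit probe set without wild-type replicate 1. Both filter settings, the 2 variance settings and the replicate block leave each change as it was, so only the adjusted p could move there. The block for the fluidics run set only leukemia replicate 1 against the wild-type arrays, so its calls rest on that array. Over these settings the change ran from -0.84 to -0.61 for the brighter Kit probe set, from -4.13 to -3.55 for Flt3, from -6.54 to -5.44 for the brightest Csf1r probe set and from -4.08 to -2.64 for Cd34.

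**Figure D5:**
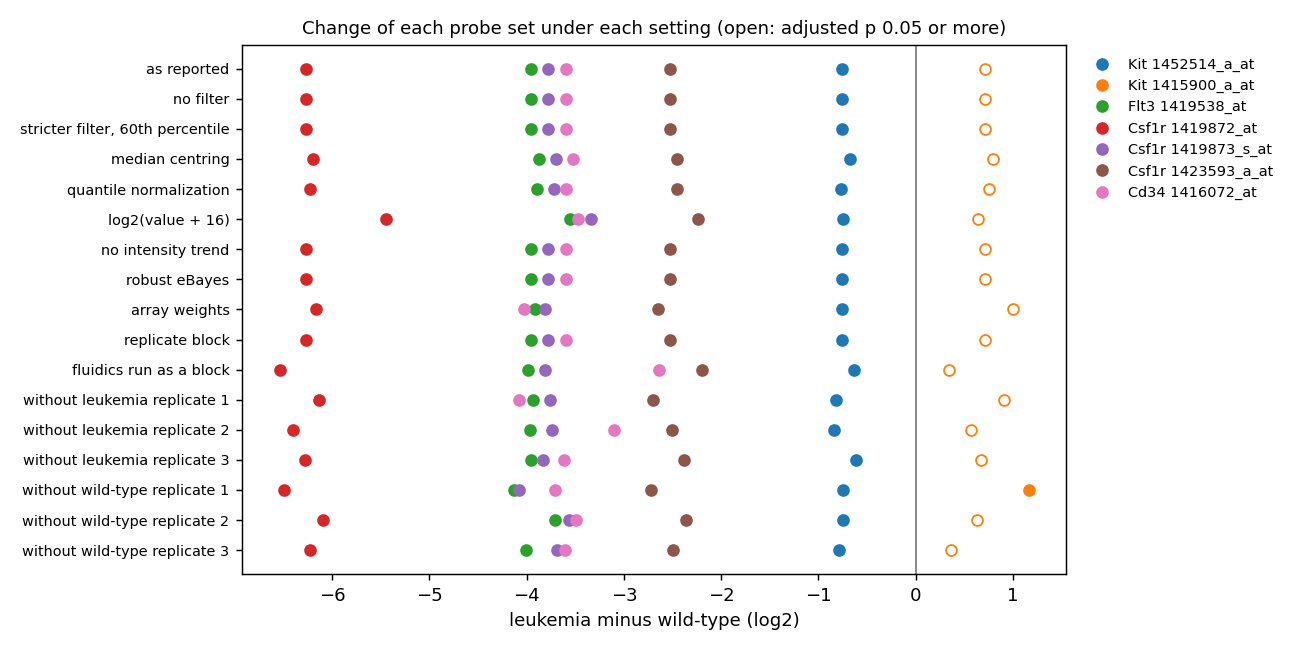
Change of each of the 7 probe sets (x axis, leukemia minus wild-type in log2) as reported and under 16 other settings (rows), filled where the adjusted p is under 0.05. The dimmer Kit probe set is open in all rows but 1, and Cd34 reaches -2.64 in the row that blocks on the fluidics run (arrays with the same hybridization date entry).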

How the data were processed

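Each sample was hybridised to 1 Affymetrix Mouse430_2 array from 200 ng of total RNA, per the labels and file headers. The authors deposited linear intensity values, made with RMA per the submitters' processing notes (version not given in the sources used here), from 3.31 to 18869. Log2 was taken with no pseudocount. Groups and replicate numbers came from the sample titles. All 6 value columns were mapped. The fluidics run (2 runs) is the name used here for arrays with the same hybridization date entry in the file headers.

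Of 28821 probe sets, 23750 had 1 symbol in the platform annotation, and 677 with several symbols were not named. Probe sets were tested where on 3 or more arrays they reached the 40th percentile of that array (18098, controls left out). The test was limma (version 3.58.1, R version 4.3.3): a linear model, then eBayes whose prior followed intensity, with two-sided p-values adjusted by Benjamini-Hochberg over all tested and a threshold of 0.05. The same test on the brightest probe set of each gene (9715 tested) served the gene lists. The p-values measure the spread between these samples. The fit was also run on simulated data in which both groups shared the same spread. In these data the median SD of tested probe sets was 0.23 in leukemia and 0.12 in wild-type. That run therefore does not show how the fit behaves here. Figures used matplotlib 3.10.9.

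Named list genes were up to 2 per direction with the largest change past the threshold, with ligands, class III receptors and the 3 nearest profiles. Fcgr3, Fcgr2b, Eng, Itga2b, Slamf1, Cd48, Cebpa, Spi1, Crkl, Meis1, Cd74, Zbtb46, Mcpt8 and Pecam1 were added after their values were seen. The members and lists were chosen with earlier results of these data known. Alternatives covered the filter, normalization, 16 added before the log, variance moderation, array weights, both blocks, the probe set rule and leaving out each array.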

Additional observations from a re-analysis of the deposited data

How the results depend on the processing

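With 16 added before the log, the differences between the change of the brightest Csf1r probe set and those of the others were -2.11 and -3.21. Leaving out 1 array gave a change of 0.36 to 1.16 for the dimmer Kit probe set, 4393 to 8105 changed probe sets (1956 to 3716 higher and 2325 to 4389 lower) and 2647 to 4716 changed genes (1513 to 2778 lower). The lowest counts came without wild-type replicate 2 or 3 (4404 and 4393 changed probe sets), and the highest, 8105, without leukemia replicate 1. Each of these settings had 1 sample fewer. Crkl changed sign with quantile normalization (-0.0013), with the fluidics run as a block (-0.13) and among the arrays left out (-0.093 to 0.12), and passed with the mean of its probe sets (0.44). The median of the negative regulators changed sign with the stricter filter (-0.089), with array weights (-0.028) and among the arrays left out (-0.063 to 0.18). Same-numbered arrays did not deviate together (r of deviations from group means -0.09, 0.04 and 0.01). With the replicate number as a block the changes could not differ, because the numbers are balanced over the groups (-0.76 and 0.72 for Kit, -3.95 for Flt3, -6.27, -3.77 and -2.53 for Csf1r, -3.60 for Cd34). With that block 5823 probe sets changed. The calls of Csf1 (brighter probe set), Sh2b3 and Spi1 were lost (limma adjusted p = 0.053, 0.0813 and 0.0543). The cause of these shifts was not tested. Values near or below the 40th percentile in 1 group limit how exactly the changes of Flt3, Csf1r, Cd27, Il7r, Gab1, Irf8, Hoxa9, Cebpa, Podxl and Phlda1 are known, and no detection calls were used.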
